A study of Rattus norvegicus with 16 samples.

Results

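Osteoblast and mineralization genes were followed in bone of 4 inbred rat strains. The set holds 9 genes, chosen by their role but with earlier results of these data known: Bglap, Ibsp, Spp1, Sparc, Alpl, Phospho1, Runx2, Sp7 and Dlx5. A gene entered through every probe set, the group of short array probes that reports 1 transcript, whose only gene symbol on the platform was that of the gene. This gave 8 probe sets of 7 genes among 31042 on the array, which had such probe sets for 14217 genes; Runx2 and Sp7 had no such probe set and were not analysed here. The samples were 16 arrays of RNA from the upper end of the femur, where the femoral neck lies, of 4-week-old rats. The strains, with 4 arrays each, were Fischer 344 (F344), Lewis (LEW), Copenhagen 2331 (COP) and Dark Agouti (DA). No treatment or transgene was named in the labels, and they give neither the sex nor whether replicates were separate animals, so a p-value reflects how far these arrays scatter, which may be technical. The study asked which genes of chromosome 4 differ between F344 and LEW, the parents of a cross with a skeletal locus on that chromosome; of these 9 genes only Dlx5 lies on it.

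Osteoblasts build bone by secreting a matrix of type I collagen and then loading it with calcium phosphate. Runx2 and Sp7 are the transcription factors that commit cells to this fate, and Dlx5 is a homeobox factor that acts beside them. Of the secreted proteins, Bglap (osteocalcin) is the late marker that binds mineral, Ibsp (bone sialoprotein) and Spp1 (osteopontin) are acidic phosphoproteins of the mineralized matrix, and Sparc (osteonectin) binds collagen and calcium. Alpl, the tissue-nonspecific alkaline phosphatase, removes pyrophosphate, an inhibitor of mineral growth. Phospho1 is a phosphatase of matrix vesicles that frees phosphate inside them. Several are not confined to osteoblasts: Spp1 is also made by osteoclasts and macrophages, Ibsp and Alpl by hypertrophic chondrocytes, Alpl by neutrophils, and Sparc by many stromal and vascular cells.

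The 250 bases before the annotated start of 4 of these genes are given here, Bglap and Ibsp because they are the matrix genes most closely tied to mineralizing bone, and Alpl and Phospho1 because they were the genes that differed between strains. Sequences are RefSeq's, assembly GRCr8, from the BN reference strain and not from the strains measured, printed 5' to 3' on the strand of the gene. Capitals mark ACCACA (the core bound by RUNX factors, searched on both strands), TAATTA or TAATTG and their reverse complements (a homeodomain core), and TATAAA in the last 50 bases (gene strand only).
Bglap, chr2:176137319-176137568, minus strand: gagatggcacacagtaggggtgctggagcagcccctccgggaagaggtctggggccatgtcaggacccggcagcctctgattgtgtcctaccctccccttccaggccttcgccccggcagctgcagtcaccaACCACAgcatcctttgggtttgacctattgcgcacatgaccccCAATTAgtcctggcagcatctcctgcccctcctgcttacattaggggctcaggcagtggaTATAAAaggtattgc
Ibsp, chr14:5757243-5757492, minus strand: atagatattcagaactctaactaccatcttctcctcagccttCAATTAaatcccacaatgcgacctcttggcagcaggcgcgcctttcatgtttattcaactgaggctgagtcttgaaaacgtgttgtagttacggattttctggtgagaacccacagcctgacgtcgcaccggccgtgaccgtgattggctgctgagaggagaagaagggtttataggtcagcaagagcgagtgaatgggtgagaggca
Alpl, chr5:155289786-155290035, minus strand: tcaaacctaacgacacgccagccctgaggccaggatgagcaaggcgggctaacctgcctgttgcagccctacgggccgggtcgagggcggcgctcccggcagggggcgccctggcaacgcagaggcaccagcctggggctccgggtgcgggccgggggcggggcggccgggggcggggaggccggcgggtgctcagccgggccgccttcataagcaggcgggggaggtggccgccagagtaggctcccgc
Phospho1, chr10:81258560-81258809, plus strand: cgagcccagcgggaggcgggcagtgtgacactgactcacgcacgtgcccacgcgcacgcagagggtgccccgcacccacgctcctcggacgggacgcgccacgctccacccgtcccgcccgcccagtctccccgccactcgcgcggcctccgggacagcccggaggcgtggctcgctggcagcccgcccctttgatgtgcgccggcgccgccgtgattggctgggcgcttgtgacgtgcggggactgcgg
The Bglap window held 1 match to each of the 3 motifs, the Ibsp window held CAATTA, the reverse complement of TAATTG, and the windows of Alpl and Phospho1 held none. Of 33469 promoter windows of the same length, 14.5% held the RUNX core, 11.5% the homeodomain core and 2.26% TATAAA in the last 50 bases. A match is a description of letters, not a bound site. The Alpl and Phospho1 windows were both 76.0% G and C, above the 95th percentile of all windows (72.8%), against 59.2% for Bglap and 49.2% for Ibsp. A promoter was matched for 7 of the 9 genes.

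Signals were linear intensities, and each array had a 2% trimmed mean near the same value (1000.3). For arrays, their number limits the precision. The dimmest 40% of probe sets by mean log2 signal, those below a signal of about 174, were dropped and 18625 stayed; all 8 probe sets of the osteoblast genes passed. The bone label was checked against defining genes, which were bright: Col1a1, the main collagen chain of bone, had signals of 56190 to 75008 over the 16 arrays and Dmp1, an osteocyte protein, 14405 to 20845. Genes of other tissues were high as well: Col2a1 of cartilage 47470 to 61920, Acta1 of skeletal muscle 51692 to 72850, Hbb of red cells 51455 to 77340 and the osteoclast protease gene Ctsk 24331 to 34670. In such mixed tissue, fewer cells of a type and less RNA per cell cannot be told apart.

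Among the 7 genes measured, the phosphatases Alpl and Phospho1 gave all the calls. Alpl and Phospho1 passed the F-test over the 4 strains by limma at an adjusted p under 0.05, with adjusted p-values of 0.0213 and 0.00242, and the other 6 probe sets did not (adjusted p 0.213 to 0.968). That is 2 of 8 probe sets, where 31.2% of all kept probe sets passed. Over 6 pairs of strains and 8 probe sets, 48 comparisons in all, 3 passed limma's adjusted threshold of 0.05: Phospho1 in F344 minus LEW, where 13.8% of all kept probe sets passed, and Alpl and Phospho1 in F344 minus DA, where 16.1% did. In the other 4 pairs, where 10.4% to 19.9% of all kept passed, 0 of the 8 did. Each of the 3 had the higher signal in F344.

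**Figure D1:**
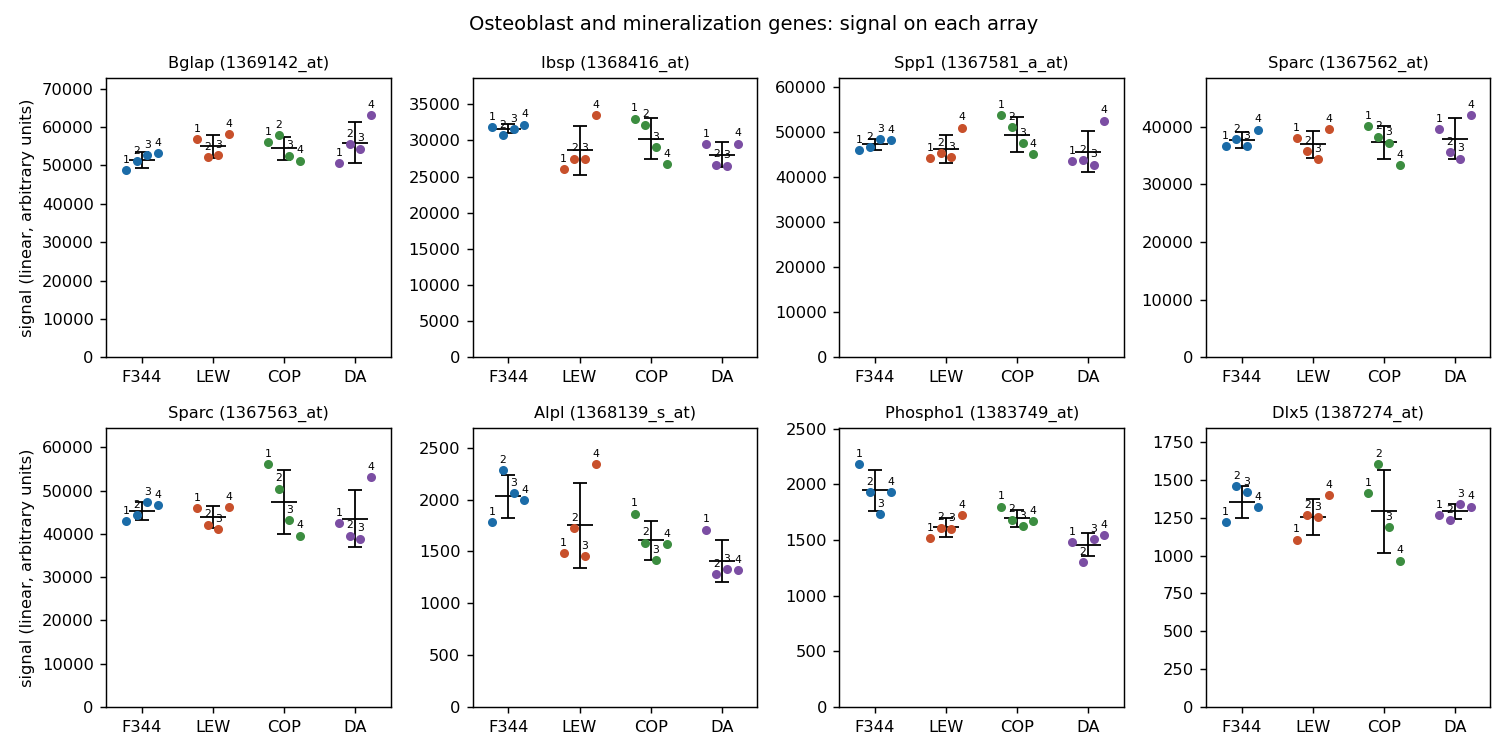
Signals of the 8 probe sets on each array. Each point is 1 array, with its replicate number, the horizontal bar is the strain mean and the whiskers are 1 SD (n = 4). Axes are linear and start at 0, and the strains overlap in most panels. Phospho1 and Alpl have their highest strain mean in F344 and their lowest in DA. LEW replicate 4 is the highest LEW array in every panel, and for Alpl the highest of all arrays.

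Phospho1 gave the clearest differences. Its signals on replicates 1 to 4 were 2179, 1934, 1736 and 1934 in the F344 arrays, 1517, 1611, 1602 and 1724 in LEW, 1801, 1683, 1628 and 1669 in COP and 1481, 1304, 1510 and 1542 in the DA arrays. All F344 arrays lay above all LEW and all DA arrays, while F344 and COP overlapped in that F344 replicate 3 lay below COP replicate 1. Means were 1946 ± 181 in F344, 1695 ± 74.0 in COP, 1614 ± 85.0 in LEW and 1459 ± 107 in DA (SD, n = 4). The log2 difference was 0.41 in F344 minus DA (SE 0.077, limma adjusted p = 7.4e-04), a 1.33-fold difference with a 95% interval of 1.19 to 1.49. In F344 minus LEW it was 0.27 (SE 0.077, limma adjusted p = 0.0239), 1.20-fold with an interval of 1.08 to 1.34. COP and DA did not overlap either (0.22, limma adjusted p = 0.0716), but this comparison did not pass. In the order of strain means, F344, COP, LEW, DA, no neighbouring pair passed (F344 and COP 0.20, limma adjusted p = 0.0826; LEW minus COP -0.072, limma adjusted p = 0.625; LEW minus DA 0.15, limma adjusted p = 0.267). The comparison with COP passed without F344 replicate 3 (0.25, limma adjusted p = 0.0396). The call against LEW was narrow: it was lost without F344 replicate 1 (log2 difference 0.21, limma adjusted p = 0.0986), and also, with differences close to the full 0.27, without F344 replicate 2 (0.27, adjusted p = 0.0523) or LEW replicate 1 (0.24, 0.0661), 2 (0.27, 0.0511) or 3 (0.26, 0.0547). The limma adjusted p was in a range of 0.0122 to 0.0986 over the arrays left out. The call against DA held with every array left out in turn (limma adjusted p at most 0.00454).

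Alpl followed the same order in its extremes. Its signals on replicates 1 to 4 were 1781, 2283, 2060 and 1998 in the F344 arrays, 1486, 1725, 1459 and 2339 in LEW, 1865, 1584, 1416 and 1568 in COP and 1710, 1279, 1333 and 1317 in the DA arrays. The F344 arrays lay above all DA arrays, while LEW spanned nearly the whole range, with LEW replicate 4 the highest of the 16 arrays. Means were 2031 ± 207 in the F344 arrays, 1752 ± 409 in LEW, 1609 ± 187 in COP and 1410 ± 202 in the DA arrays (SD, n = 4). F344 minus DA was 0.53 on the log2 scale (SE 0.13, limma adjusted p = 0.00728), 1.45-fold with a 95% interval of 1.20 to 1.74. F344 minus COP was 0.34 (limma adjusted p = 0.0744) and did not pass, and F344 minus LEW was 0.23 (limma adjusted p = 0.265). In the order of means no neighbouring pair passed: LEW minus COP was 0.10 (limma adjusted p = 0.687) and COP minus DA 0.19 (limma adjusted p = 0.376). The LEW comparison turned on a single array: without LEW replicate 4 it was 0.38 (limma adjusted p = 0.0244), and F344 minus COP, whose value does not use that array, then passed too (limma adjusted p = 0.0242). F344 minus COP also passed without COP replicate 1 (0.41, limma adjusted p = 0.0434). The F-test of Alpl did not pass without F344 replicate 2 (limma adjusted p = 0.0698) or 3 (0.0523) or DA replicate 2 (0.0553), 3 (0.0502) or 4 (0.0515), nor without an intensity trend in the moderation (0.0535). Neutrophil markers, of cells that also express Alpl, had list means of -0.53 to -0.47 in F344 (9 genes, centred log2), the lowest of the strains, and 0.54 to 0.61 in COP, the highest. Cartilage markers had list means of 0.18 to 0.24 in F344 and -0.30 to -0.00082 in DA. Their part in the differences of Alpl and Phospho1 was not tested. The probe set of Alpl is of a type marked by its suffix as able to match more than 1 transcript, so its signal may not be from Alpl alone.

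Ibsp and Spp1, the acidic matrix phosphoproteins, both lie on chromosome 14. Ibsp had signals of 31896, 30720, 31619 and 32206 in the F344 arrays, 25992, 27480, 27490 and 33552 in LEW, 33037, 32188, 29050 and 26761 in COP and 29454, 26671, 26516 and 29549 in the DA arrays. F344 arrays stood close together and above all DA arrays, yet F344 minus DA (0.17, 95% interval 0.017 to 0.33, limma adjusted p = 0.125) did not pass. It passed when only the 8 arrays of F344 and DA were fitted (limma adjusted p = 0.0407), and under quantile normalization, which gives all arrays the same distribution (0.24, limma adjusted p = 0.033). In LEW 3 arrays lay below all F344 arrays and replicate 4 above them. F344 minus LEW was 0.15 (limma adjusted p = 0.211), and without LEW replicate 4 it was 0.23 (limma adjusted p = 0.0267), so that array decides the call; the F-test of Ibsp then passed too (limma adjusted p = 0.0368). Spp1 had signals of 45987, 46681, 48459 and 48238 in the F344 arrays, 44294, 45387, 44426 and 51055 in LEW, 53901, 51199, 47669 and 45227 in COP and 43572, 43904, 42848 and 52596 in the DA arrays. Every pair of strains overlapped, and its largest difference, COP minus DA, was 0.12 (limma adjusted p = 0.312). Under quantile normalization it was 0.22 (limma adjusted p = 0.00362), and F344 minus DA was 0.18 (limma adjusted p = 0.0118) against 0.055. LEW replicate 4 and DA replicate 4 each stood above the other arrays of their strain for this gene.

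No strain difference of Bglap passed. Signals were 48771, 51114, 52752 and 53310 in the F344 arrays, 56882, 52260, 52684 and 58170 in LEW, 56007, 57912, 52577 and 51287 in COP and 50523, 55629, 54407 and 63221 in the DA arrays. All strains overlapped. F344 had the lowest mean as deposited, but under quantile normalization F344 minus DA was 0.018 (limma adjusted p = 0.770) and the direction against DA turned. Its difference furthest from 0 was F344 minus DA at -0.12 (SE 0.065, limma adjusted p = 0.247), and over its 6 pairs the 95% intervals reached at most a 1.19-fold difference in either direction.

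Sparc was read by a pair of probe sets. On 1367562_at the strain means were 37679 ± 1363 in the F344 arrays, 36995 ± 2333 in LEW, 37277 ± 2837 in COP and 37942 ± 3535 in the DA arrays (SD, n = 4), and its largest difference was 0.034 in size (LEW minus DA -0.034, limma adjusted p = 0.827). On 1367563_at they were 45340 ± 2030.4 in the F344 arrays, 43848 ± 2603 in LEW, 47303 ± 7365 in COP and 43525 ± 6586 in the DA arrays (SD, n = 4), with COP minus DA at 0.12 (limma adjusted p = 0.486). The second probe set varied more within COP, from 39615 to 56032, and within DA, from 38884 to 53117. Neither passed between any strains, though under quantile normalization COP minus DA of the second was 0.23 (limma adjusted p = 0.0437).

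Dlx5, the transcription factor on chromosome 4, had signals of 1221, 1459, 1421 and 1321 in the F344 arrays, 1106, 1267, 1255 and 1400 in LEW, 1412, 1603, 1191 and 967 in COP and 1270, 1234, 1343 and 1324 in the DA arrays. All 4 strains overlapped. F344 minus LEW was 0.11 (SE 0.12, 95% interval -0.13 to 0.35, limma adjusted p = 0.603). The COP arrays alone covered the full range of the 16, and the DA arrays were the closest together.

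**Figure D2:**
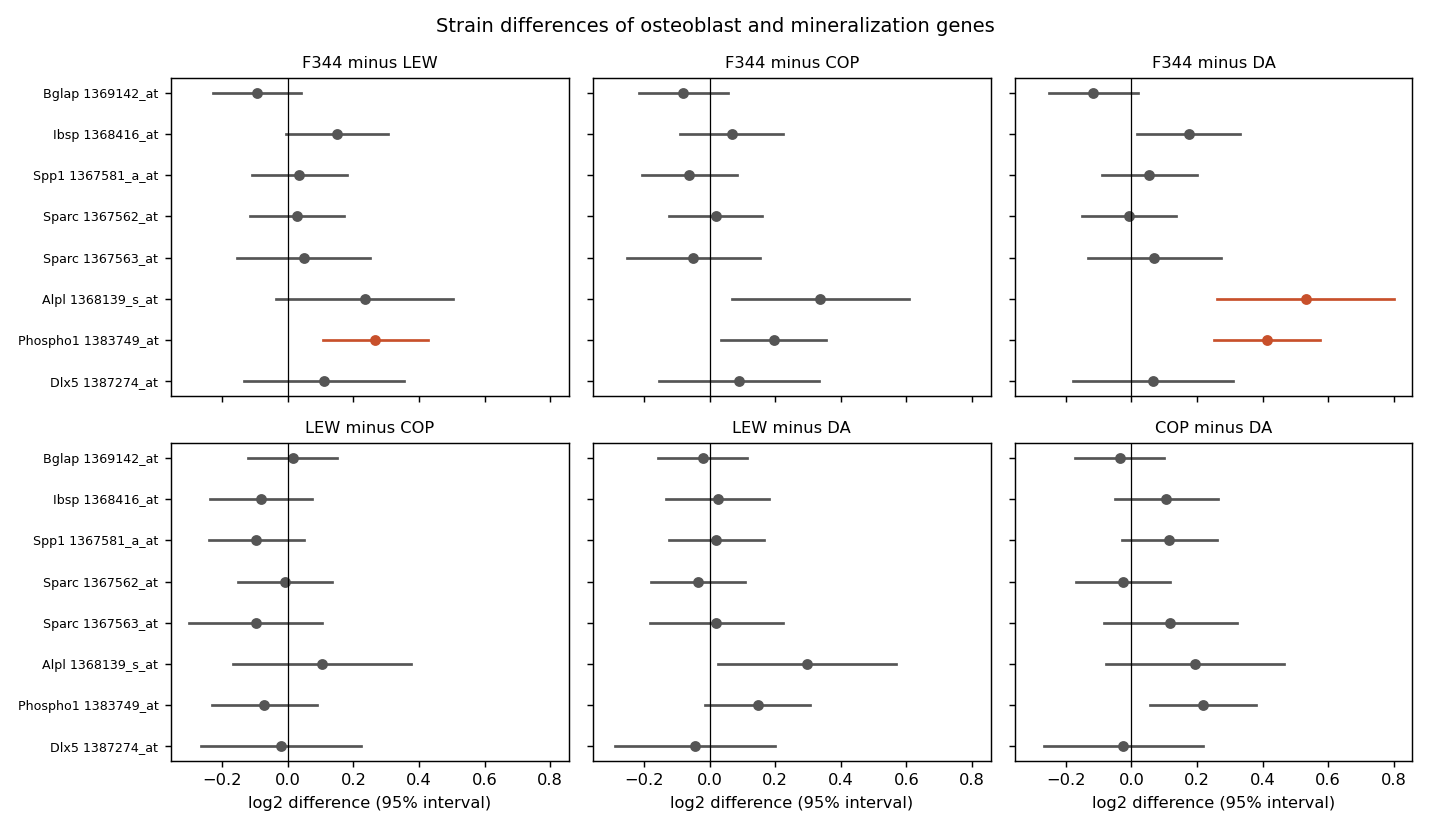
Log2 differences of the 8 probe sets for the 6 pairs of strains, first strain minus second. Points are estimates of the limma fit, lines their 95% intervals (not adjusted for many tests), and orange marks an adjusted p under 0.05; 3 of 48 are orange, Phospho1 in F344 minus LEW and Alpl and Phospho1 in F344 minus DA.

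Counted by pair of strains, 1 of 8 probe sets passed in F344 minus LEW, where 13.8% of all kept probe sets did; 0 of 8 in F344 minus COP (19.9%); 2 of 8 in F344 minus DA (16.1%); 0 of 8 in LEW minus COP (13.7%); 0 of 8 in LEW minus DA (10.4%); and 0 of 8 in COP minus DA (11.9%). At an unadjusted limma p under 0.05 these counts were 1, 2, 3, 0, 1 and 1. With so few probe sets, the counts lie near those shares. Groups did not overlap for 1 probe set in F344 minus LEW (18.3% of all kept), 3 in F344 minus DA (21.5%) and 1 in COP minus DA (16.4%), and for 0 in the other 3 pairs (25.1% for F344 minus COP, 17.4% for LEW minus COP and 13.4% for LEW minus DA). The median absolute difference was 0.10 in F344 minus LEW against 0.14 over all kept probe sets, 0.074 against 0.15 in F344 minus COP, 0.093 against 0.15 in F344 minus DA, 0.077 against 0.13 in LEW minus COP, 0.029 against 0.13 in LEW minus DA and 0.11 against 0.14 in COP minus DA. The pairs share strains, so these counts are not independent. A comparison that missed the threshold does not show equal levels. Each 95% interval covers 1 pair of strains and is not adjusted for many tests. Over the pairs, their widest limits were 1.19-fold for Bglap, 1.20-fold for Spp1 and 1.26-fold for Ibsp. For Sparc they were 1.13-fold and 1.25-fold and for Dlx5 1.28-fold, on the signals as deposited. Such limits are bounds on ratios of signal, not of transcript numbers. These bounds do not cover the choice of normalization: under quantile normalization the estimates themselves were larger for Ibsp in F344 minus DA and for Spp1 and the second Sparc probe set in COP minus DA.

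By mean signal the probe sets of Bglap, Spp1, Sparc and Ibsp ranked from 21 to 167 among the 18625 kept, whereas Alpl ranked 5857, Phospho1 5873 and Dlx5 7279; rank places a probe set on the range of the scanner and does not compare transcript numbers. Among the 200 brightest probe sets, which include 5 of the 8, the median absolute difference in F344 minus LEW was 0.064 and 3.5% passed, against 0.14 and 13.8% over all kept. In F344 minus DA these were 0.12 and 9.5%, against 0.15 and 16.1%, in F344 minus COP 0.061 and 12.5%, against 0.15 and 19.9%, and in LEW minus COP 0.045 and 3.5%, against 0.13 and 13.7%. In LEW minus DA they were 0.094 and 5.5%, against 0.13 and 10.4%. In COP minus DA 24 of the 200 brightest passed, a share no lower than the 11.9% over all kept, with medians of 0.10 and 0.14.

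Among the Lewis arrays, a single one was highest throughout. LEW replicate 4 was the highest LEW array for 8 of 8 probe sets, where it was highest for 31.0% of all kept probe sets. Its signals exceeded the LEW mean by a median of 0.12 on the log2 scale, from 0.077 for the least to 0.44 for Alpl. The lowest LEW array was replicate 1 for 4 probe sets, replicate 3 for 3 and replicate 2 for 1. Under quantile normalization LEW replicate 4 was still highest for 8 of 8. The SD of log2 signals in LEW was 0.31 for Alpl, 0.16 for Ibsp and 0.14 for Dlx5, and 0.076 to 0.097 for the other 5 probe sets.

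The other strains differed in this. F344 arrays were closest together, with a median SD of 0.061 over the 8 probe sets while LEW had 0.094 and COP and DA 0.13 each; F344 had the narrowest spread for 6 of 8 probe sets, where it was narrowest for 35.1% of all kept. LEW had the widest spread for 2 of the 8, near its share of 31.3% of all kept. DA had it for 3, COP for 2 and F344 for 1, and 8 probe sets are too few to rank the strains by this count. In COP, replicate 1 was highest for 6 probe sets (29.2% of all kept), also under quantile normalization. COP replicate 4 was lowest for 6 (25.1% of all kept and 47.8% of the 500 brightest), and for 4 under quantile normalization. F344 replicate 1 was lowest for 6 (27.2% of all kept and 52.8% of the 500 brightest), and for 2 under quantile normalization. In DA, replicate 4 was highest for 6 of 8, but that array was also highest for 72.0% of the 500 brightest kept probe sets, and under quantile normalization it was highest for 2 of 8. LEW replicate 1 was highest in LEW for 63.8% of the 500 brightest and 26.7% of all kept, and for 0 of the 8 osteoblast probe sets. Under quantile normalization it was highest for 28.8% of the 500 brightest and again for 0 of the 8.

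**Figure D3:**
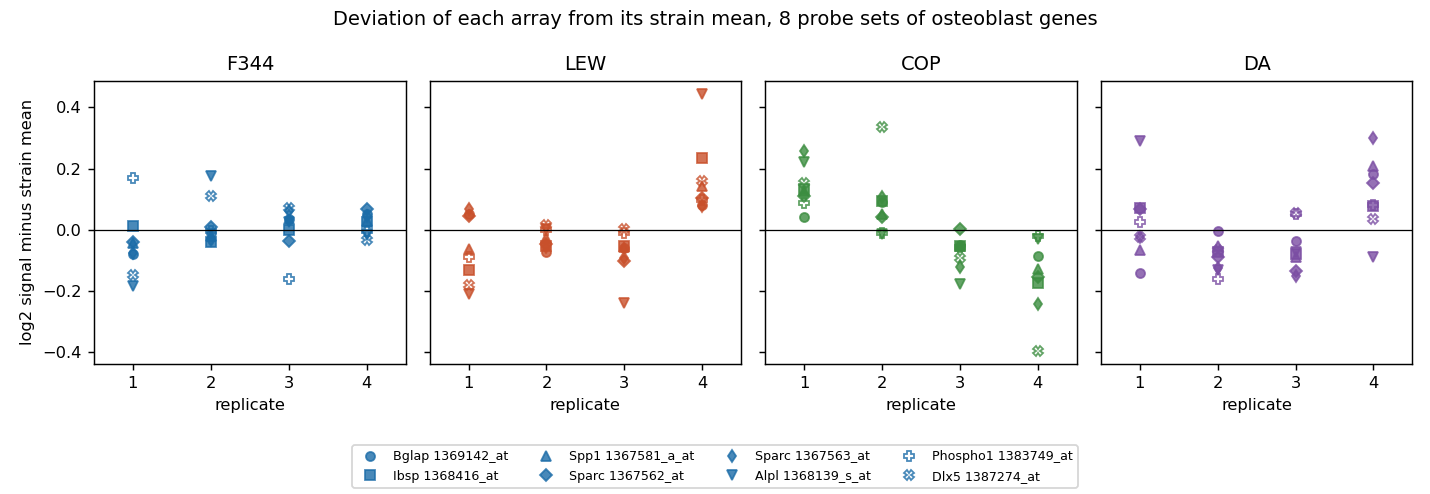
Log2 signal of each array minus the mean of its strain, by replicate number, for the 8 probe sets (symbols). Replicates have no order. In LEW all 8 symbols of replicate 4 lie above 0, from 0.077 to 0.44; in COP replicate 1 lies above 0 and replicate 4 below; F344 has the smallest median SD (0.061).

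Some lists of markers of other cells moved with the Lewis spread. The mean of a marker list, centred on all 16 arrays, was for the 15 kept growth plate cartilage genes -0.49, 0.016, -0.31 and 0.42 on LEW replicates 1 to 4, against 0.18 to 0.24 in F344. The 7 osteoblast and mineralization genes gave -0.099, -0.046, -0.092 and 0.16, against 0.038 to 0.11 in F344. LEW replicate 4 was also the highest LEW array for the lists of osteocyte (0.25, 8 genes), osteoclast (0.11, 9 genes), matrix and collagen (0.19, 26 genes) and mineral handling genes (0.23, 13 genes). It was the lowest for erythroid (-0.00098, 12 genes), neutrophil (0.016, 9 genes), skeletal muscle (-0.20, 17 genes) and adipocyte genes (-0.17, 12 genes). The B lymphoid and the fibroblast and periosteal lists followed this spread less closely. B lymphoid genes gave 0.27, 0.35, 0.38 and 0.35 on LEW replicates 1 to 4, against -0.65 to -0.57 in F344 (7 genes). Fibroblast and periosteal genes gave 0.21, 0.17, 0.091 and 0.22 on the LEW replicates (12 genes). COP showed the same pairing at its ends, with cartilage at 0.43 and osteoblast genes at 0.16 on replicate 1 and at -0.47 and -0.14 on replicate 4. Summed signals of the cartilage list ran from 202089 to 213917 in the F344 arrays, 165541 to 232685 in LEW, 151068 to 237002 in COP and 165285 to 194910 in the DA arrays. The part of other cells in the spread of the osteoblast genes was not tested.

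**Figure D4:**
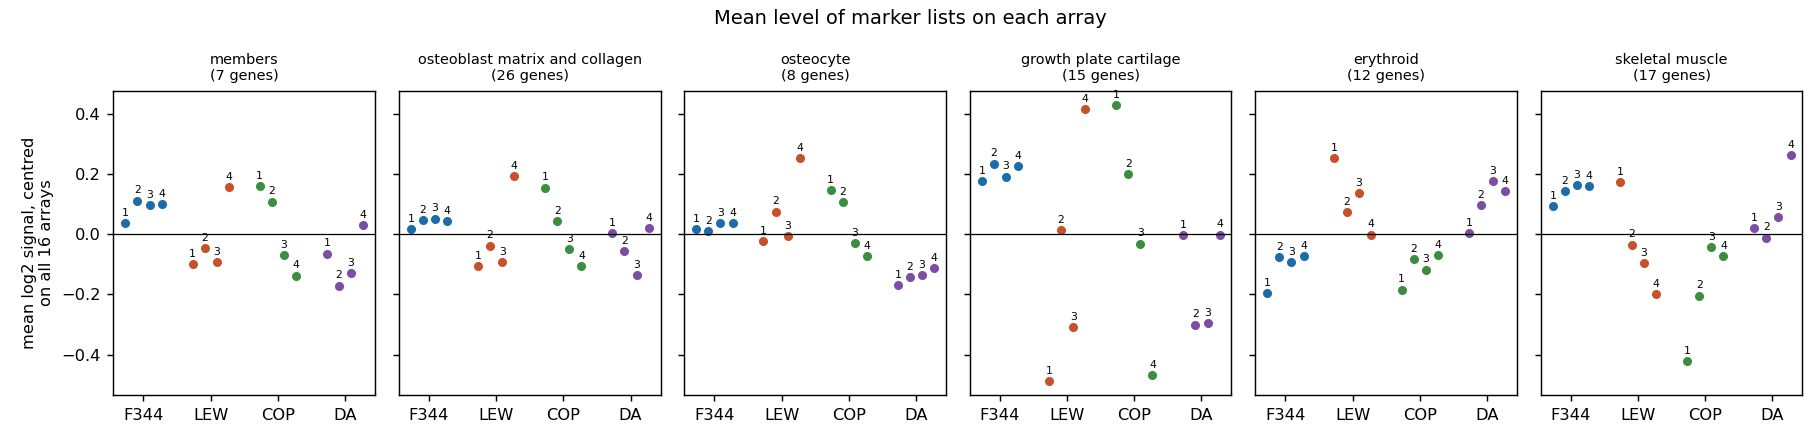
Mean log2 signal of 6 gene lists on each array, each gene centred on the 16 arrays; points are arrays with their replicate number. LEW replicate 4 and COP replicate 1 are high for osteoblast, matrix and cartilage lists (cartilage 0.42 and 0.43), and LEW replicate 4 is low for muscle (-0.20).

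Genes around the set were read from 3 wider lists, 1 probe set per gene, chosen with earlier results of these data known. Of 26 kept genes of osteoblast matrix and collagen processing, 7 passed the F-test of limma, where 32.9% of all 10548 genes did. In F344 minus LEW 0 of 26 rose and 0 fell (14.5% of all genes passed; 7 of the 26 had an unadjusted limma p under 0.05), in F344 minus COP 4 rose and 3 fell (21.0%), in F344 minus DA 5 rose and 0 fell (17.3%), in LEW minus COP 1 rose (14.1%), in LEW minus DA 2 rose (10.4%) and in COP minus DA 3 rose (12.2%). Cthrc1, a secreted protein of collagen matrix, had the smallest F-test p, with means of 13868 ± 154 in the F344 arrays, 13274 ± 2628 in LEW, 8853 ± 1092 in COP and 10552 ± 446 in the DA arrays (SD, n = 4). It rose in F344 minus COP by 0.66 (limma adjusted p = 6.0e-05). Lox, which crosslinks collagen, Fkbp10, a collagen chaperone, and Pcolce, which helps to cleave the collagen propeptide, rose in F344 minus DA by 0.42, 0.66 and 0.35 (limma adjusted p 0.00218, 7.9e-04 and 0.00481). The other kept probe set of Lox gave -0.42 in F344 minus LEW (limma adjusted p = 0.026), against 0.19 and no call for the brighter one.

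Of 13 kept genes of phosphate and mineral handling, 10 passed the F-test, where 32.9% of all genes did. Enpp1, which makes the pyrophosphate that Alpl removes, had signals of 2184, 2030, 2185 and 2101 in the F344 arrays, 1512, 1849, 1514 and 2165 in LEW, 4766, 3896, 4454 and 3706.5 in COP and 2917, 2938, 3302 and 3010.3 in the DA arrays. All COP arrays lay above all DA arrays, and those above all F344 and LEW arrays, which overlapped each other. LEW minus COP was -1.27 and F344 minus COP -0.98 (limma adjusted p = 7.9e-09 and 3.7e-07). Ankh, which exports pyrophosphate from cells, had means of 3100.2 ± 238 in the F344 arrays, 2478 ± 198 in LEW, 2436 ± 241 in COP and 1885 ± 146 in the DA arrays (SD, n = 4). It rose in F344 minus LEW by 0.32 (limma adjusted p = 0.0117) and in F344 minus DA by 0.72 (limma adjusted p = 2.8e-06); a second probe set of Ankh had 0.11, not called, and 0.38. Ankh, Alpl and Phospho1 had their highest mean in F344 and their lowest in DA, and Enpp1 its highest in COP. Ibsp, Fkbp10, Lox (by its brighter probe set, not the other), Pcolce, Phex, Tcf7 and Hdac4 had the same extremes. Ankh, Alpl and Phospho1 were thus not alone in having these extremes. Bglap, Spp1, Sparc, Dlx5, Cthrc1, Anxa5, Lrp6 and Lef1 did not have them. Phex, an endopeptidase of phosphate balance, rose in F344 minus DA by 0.55 (limma adjusted p = 0.00365), and its LEW arrays ran from 4365 on replicate 1 to 7635 on replicate 4. Anxa5, a calcium-binding annexin of matrix vesicles, rose in COP minus DA by 0.29 (limma adjusted p = 0.00596). Over the list 1 rose and 0 fell in F344 minus LEW (14.5% of all genes passed), 3 and 1 in F344 minus COP (21.0%), 4 and 1 in F344 minus DA (17.3%), 0 and 2 in LEW minus COP (14.1%), 5 and 1 in LEW minus DA (10.4%), and 3 and 1 in COP minus DA (12.2%).

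Of 22 kept osteoblast regulators, 9 passed the F-test, where 32.9% of all genes did. Lrp6, a Wnt co-receptor whose gene is also on chromosome 4, had means of 535 ± 71.9 in the F344 arrays, 561 ± 76.2 in LEW, 952 ± 84.1 in COP and 847 ± 107 in the DA arrays (SD, n = 4). It fell in F344 minus COP by 0.84 and in LEW minus COP by 0.77 (limma adjusted p = 4.1e-05 and 1.2e-04), while F344 minus LEW was -0.069 (limma adjusted p = 0.774). Lef1 and Tcf7 are the nuclear effectors of Wnt signals, and both are also expressed in lymphoid cells. In F344 minus LEW Lef1 fell by 0.60 (limma adjusted p = 3.8e-05), while another probe set of Lef1 had -0.060 and was not called, and Tcf7 rose by 0.63 (limma adjusted p = 0.00324). In the same comparison 7 of 7 B lymphoid markers fell, with a median of -0.79, where 795 of all 10548 genes fell. All 7 also fell in F344 minus COP (median -0.87, where 1121 of all genes fell) and F344 minus DA (median -0.58, 970 genes). On the probe set first given, Lef1 was -0.31 in F344 minus COP (limma adjusted p = 0.0139). In F344 minus DA it was -0.081 and not called (limma adjusted p = 0.572). Tcf7 rose by 0.46 and 0.71 in these 2 pairs. The list mean of the B lymphoid markers was -0.65 to -0.57 in F344 and 0.27 to 0.38 in LEW. The part of lymphoid cells in the Lef1 and Tcf7 differences was not tested, and no list of T-cell markers was read. Hdac4, a deacetylase that restrains RUNX2, had its lowest mean in DA, at 252 ± 36.5 (SD, n = 4), against 404 to 436 in the other strains. Of these regulators 1 rose and 1 fell in F344 minus LEW (14.5% of all genes passed), 3 and 3 in F344 minus COP (21.0%), 6 and 1 in F344 minus DA (17.3%), 1 and 2 in LEW minus COP (14.1%), 4 and 1 in LEW minus DA (10.4%), and 2 and 0 in COP minus DA (12.2%). The median difference of the 3 lists in F344 minus LEW was 0.025, 0.063 and 0.014, beside 0.012 for all genes.

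**Figure D5:**
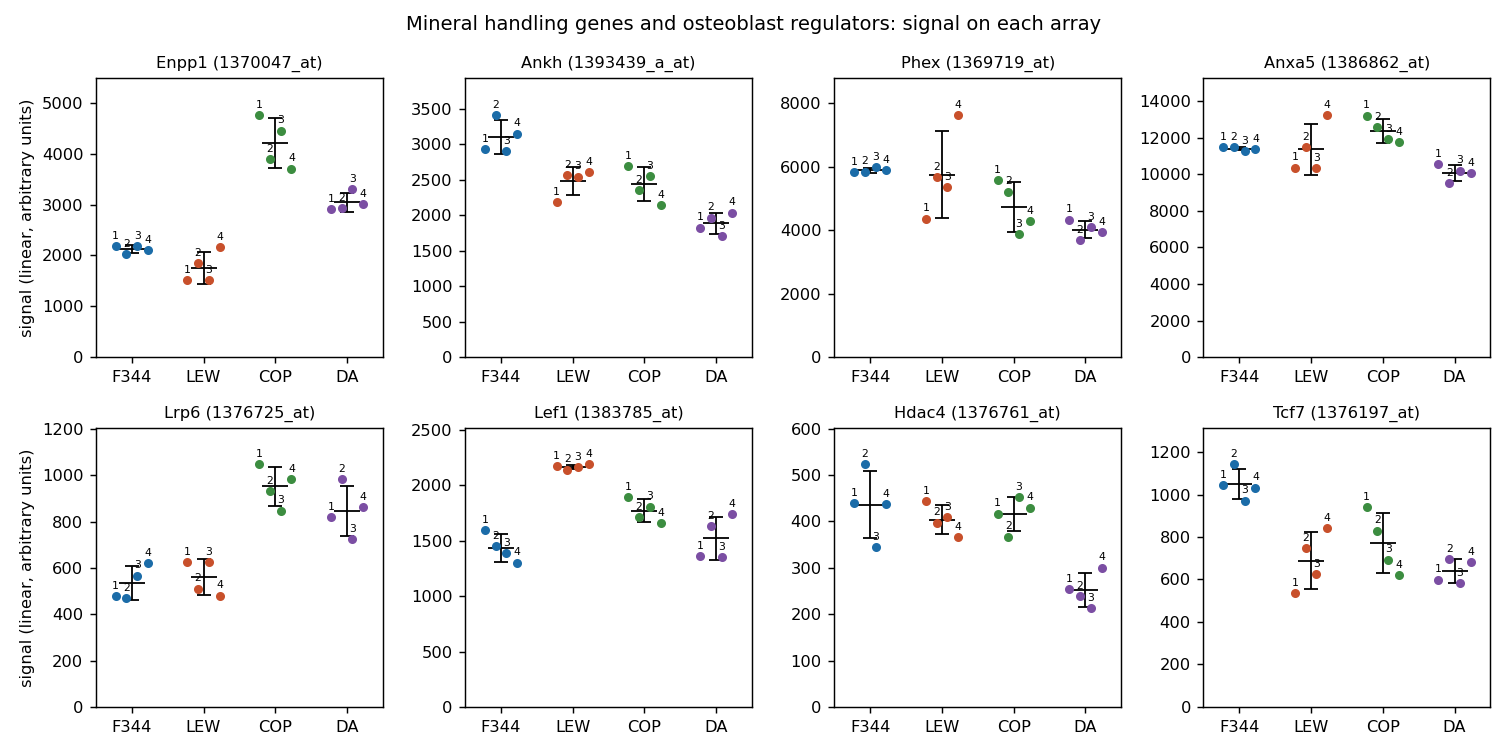
Signals of 4 mineral handling genes and 4 osteoblast regulators on each array, drawn as for the set itself (points are arrays with replicate numbers, bars the strain mean and whiskers 1 SD, n = 4, axes from 0). Enpp1 is highest in COP (mean 4206), Ankh has its highest mean in F344 (3100.2) and its lowest in DA (1885), and Lrp6 is at most 626 on F344 and LEW arrays and at least 724 on COP and DA arrays.

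The other marker lists, counted by the F-test against the same 32.9%, gave 7 of 8 osteocyte, 2 of 15 cartilage, 3 of 9 osteoclast, 10 of 12 erythroid, 8 of 9 neutrophil, 7 of 7 B lymphoid, 11 of 17 skeletal muscle, 8 of 12 adipocyte and 8 of 12 fibroblast and periosteal genes. These lists too were chosen with earlier results of these data known.

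Likeness of pattern was measured as Pearson's r of log2 signals over the 16 arrays with each of 10472 other genes, as a description; the arrays share scaling and strain, and no p is given. The genes most like Bglap were Rps23 (0.94), Actg1 (0.91) and Rpl41 (0.89), whose lowest signals were 33514 or more. Ibsp was closest to Tspan6 (0.93), Mia (0.93) and Snorc (0.93), the last 2 known from cartilage. Spp1 was closest to Atp6v0c (0.90), Serf2 (0.85) and Cst3 (0.85). Sparc, read here only by its brighter probe set 1367563_at, was closest to Atp6v0c (0.83), the collagen gene Col5a2 (0.82) and Pdgfd (0.80). Alpl was closest to Maged1 (0.95), Colec12 (0.91) and Aldh1l2 (0.91). Phospho1 was closest to Unc5b (0.89), Ctsc (0.89) and Nae1 (0.87), for which r of deviations from strain means was lower, at 0.56, 0.42 and 0.69. Dlx5 was closest to Folr1 (0.85), Insig1 (0.81) and Pgf (0.80).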

How the data were processed

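The table deposited by the authors holds linear intensity values, a signal for every probe set on every array. The submitters' processing notes name MAS5; its version, scaling target and detection calls are not given in the sources used here. These values show that the authors' signals were scaled array by array (2% trimmed mean about 1000). Of 31099 probe sets, 57 controls were left out; 20826 of the rest had 1 gene symbol, 436 several and 9780 none. The gene IDs of 20758 matched RefSeq (GRCr8), which gave chromosomes.

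All values were taken to log2 after a floor of 1, which 255 values reached. The fit was made with limma 3.58.1 (R 4.3.3), with a mean for each strain over 16 arrays (12 residual degrees of freedom), with an intensity trend, on 18625 kept probe sets; two-sided p-values were adjusted by Benjamini-Hochberg over all of them. For wider lists a gene was read by its brightest kept probe set, 10548 genes in all. The lists (matrix and collagen, mineral handling, regulators, and osteocyte, cartilage, osteoclast, erythroid, neutrophil, B lymphoid, muscle, adipocyte and fibroblast markers) and the members were chosen with earlier results of these data known. Named from the 3 pathway lists were the 4 genes with the smallest F-test p and any called in F344 minus LEW; likeness named 3 genes per member, skipping symbols that only number a locus. The fit was also run on simulated data for F344 minus LEW (5 simulations of 18625 probe sets, 200 changed). At log2 changes of 0.5, 1 and 2 the share called was 54.3%, 90.7% and 99.4%, and 5.68% of calls were false. On the measured arrays 2567 probe sets were called in F344 minus LEW, far more than the 200 changed in a simulation. The simulated shares are therefore not error rates of the calls reported here. Figures used matplotlib 3.10.9. Alternatives are given in the closing section. The strains share replicate numbers in the labels; the fit had no block.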

Additional observations from a re-analysis of the deposited data

Results flagged for a closer look

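Within a strain, an array was singled out when its gap to the nearest other array took a larger part of the range of the 4 arrays than the 95% critical value of Dixon's test. This was looked for in 32 sets of 4 arrays (8 probe sets, 4 strains) and met in 3, where chance alone gives about 1.6. Spp1 on LEW replicate 4 had a signal of 51055, against 44294 to 45387 on the other LEW arrays. Spp1 on DA replicate 4 had 52596, against 42848 to 43904. Alpl on DA replicate 1 had 1710, against 1279 to 1333 on the other DA arrays.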

How the results depend on the processing

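Over the 8 probe sets the counts of calls moved by small numbers. In F344 minus LEW, leaving out 1 array gave 0 to 3 calls, the 3 (Alpl, Ibsp and Phospho1) without LEW replicate 4, and leaving out LEW replicates 1 and 4 together, chosen after seeing the data, gave 0. In F344 minus DA quantile normalization gave 4 calls, adding Ibsp and Spp1, the 8 arrays of these strains alone gave 3, adding Ibsp, and leaving out arrays 2 to 2. In F344 minus COP array weights, the 8 arrays of these strains alone and the fit without LEW replicates 1 and 4 each gave 1 call (Alpl), an adjusted p under 0.10 gave 2, and leaving out arrays 0 to 1. In COP minus DA quantile normalization gave 2 (Spp1 and Sparc) and an adjusted p under 0.10 gave 1, and leaving out arrays 0 to 0. LEW minus COP and LEW minus DA had 0 to 0 calls under every alternative and array left out. The F-test called 1 without an intensity trend, where the adjusted p of Alpl was 0.0535, 3 under quantile normalization (adding Spp1), and 1 to 3 with arrays left out; for Alpl it reached 0.0698 without F344 replicate 2. No difference changed sign while called. Over all kept probe sets, counts of calls with 1 array left out ran from 1911 to 2788 in F344 minus LEW, 2889 to 3893 in F344 minus COP, 2266 to 3274 in F344 minus DA, 2155 to 2717 in LEW minus COP, 1542 to 1975 in LEW minus DA, 1528 to 2464 in COP minus DA and 4935 to 6180 by the F-test. With the replicate number as a block, 2 probe sets passed in F344 minus DA, 1 in F344 minus LEW and 0 in COP minus DA, as without the block; same-numbered arrays of different strains did not deviate together (24 pairs, correlation -0.17 to 0.088), and 4 of 16 arrays correlated best with their own number. Median centring, the pseudocount at the 10th percentile, no filter, the 60th percentile filter and robust moderation changed no call of the 8 probe sets.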
